A study of Mus musculus with 4 samples.

Results

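Accessibility of 10 genes that fibroblasts use to build collagen and matrix was compared between HAT1+/+ (WT) and HAT1-/- (KO) cells. HAT1 acetylates the tails of new histone H4 before it is placed on DNA. The genes were Col1a1 and Col1a2 (type I collagen), Col3a1, Col5a1 and Col5a2 (collagens III and V), Col6a1 and Col6a2 (collagen VI), and Fn1 (fibronectin), Sparc and Lox (lysyl oxidase). A site, that is a merged region of open chromatin, was assigned to a gene where it overlapped the gene body or lay within 50 kb of the annotated gene start. This gave 115 of the 82325 sites of the series, and no site was assigned to more than 1 of the genes. The membership used position only and no measured value.

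The cells were immortalized mouse embryonic fibroblasts on a C57bl6 background, and all lines, controls included, carried the SV40 large T antigen used to immortalize them. There were 2 WT and 2 KO lines, 1 library each, from 100000 cells grown in medium with 10% FBS, and the labels name no further treatment. ATAC-Seq uses a transposase, Tn5, which tags DNA where chromatin is open, and more reads over a site mean that more DNA there was in reach. Values are counts normalized and rounded by the authors, and a value of 1 is therefore not 1 read. The differences between genotypes rest on 2 lines each. The standard errors and p-values of limma combine the spread between these lines with that at other sites or genes of similar signal. They are therefore not the spread of a site's own 4 values alone. An exact permutation test of a single value could not go below 0.333.

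Fibroblasts secrete fibrillar collagens as procollagens. Type I collagen is the main load-bearing fibril of skin, tendon and bone, collagens III and V are built into the same fibrils, and collagen VI forms beaded microfibrils around cells. Fibronectin is the glycoprotein on which cells assemble new matrix, Sparc binds collagen, and Lox oxidizes lysines so that fibrils become cross-linked.

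None of the 10 genes changed beyond the spread between lines. The median site of the 10 genes was slightly more accessible in KO, an order that rested on WT replicate 1. The log2 fold change of KO against WT, on the log2(value + 1) scale throughout, ranged from -1.27 to 1.53 over the 115 sites with a median of 0.13, beside 0.01 over all sites. Without WT replicate 1 that median was -0.03. The median absolute difference was 0.36 between both WT lines and 0.42 between both KO lines, beside 0.20 between the genotype means. Over all sites these medians were 0.34, 0.43 and 0.25, and a mean of 2 lines varies less than a single line. By limma, 0 of the 115 sites passed the call, which asked for an unadjusted p under 0.01 and a change of 2-fold or more, where 0.373% of all sites did (0.302% lower and 0.0705% higher in KO). At an unadjusted p under 0.05, 1 of the 115 sites passed, beside 3.13% of all sites, and no site of the series reached an adjusted p under 0.05 (0%).

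The approximate depth in sites was 9420000 reads in WT replicate 1, 11400000 in WT replicate 2, 7830000 in KO replicate 1 and 5650000 in KO replicate 2. Counting error was therefore larger in KO. At Hat1 itself, the site over the gene start had the values 390, 384, 438 and 368 in the same order of libraries, which says nothing on the protein. Promoter sites were present at 9 of 10 fibroblast markers, Pdgfra being without one, at summed values from 2628 to 3106 per library. Of the other markers, promoter sites were present at 4 of 8 epithelial, 4 of 7 endothelial, 1 of 7 blood, 2 of 5 skeletal muscle and 3 of 6 neural genes, with sums per library of 130 to 232, 288 to 396, 17 to 31, 97 to 145 and 336 to 473. No site lay within 1 kb of the starts of Krt5, Krt14, Cdh5, Ptprc and Myod1, which mark such cells. Krt8, Kdr and Tubb3, markers from the same lists, did have promoter sites. Krt8 had 111, 79, 115 and 69 in the same order of libraries, and Kdr had 155, 109, 116 and 113. Tubb3 had 172, 166, 181 and 167. The part of other cells in the results was not tested.

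The 115 sites were stronger than the average site. Their median value was 86 against 52 for all sites, and 78 of them (67.8%) had a mean at or above 52, as did 50.1% of all sites. The sites were a median of 470 bp long, against 440 bp for all. Of the 115 sites, 15 overlapped a promoter of the gene itself, 4 a promoter of a neighbour (Sgca, Atox1 or G3bp1), 29 an exon or intron of the gene, and 67 lay outside it. The strongest were promoter sites, with a median value of 201 over the 15 sites at the genes' own promoters, against 57.5 inside the genes and 100.2 outside them.

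**Figure D1:**
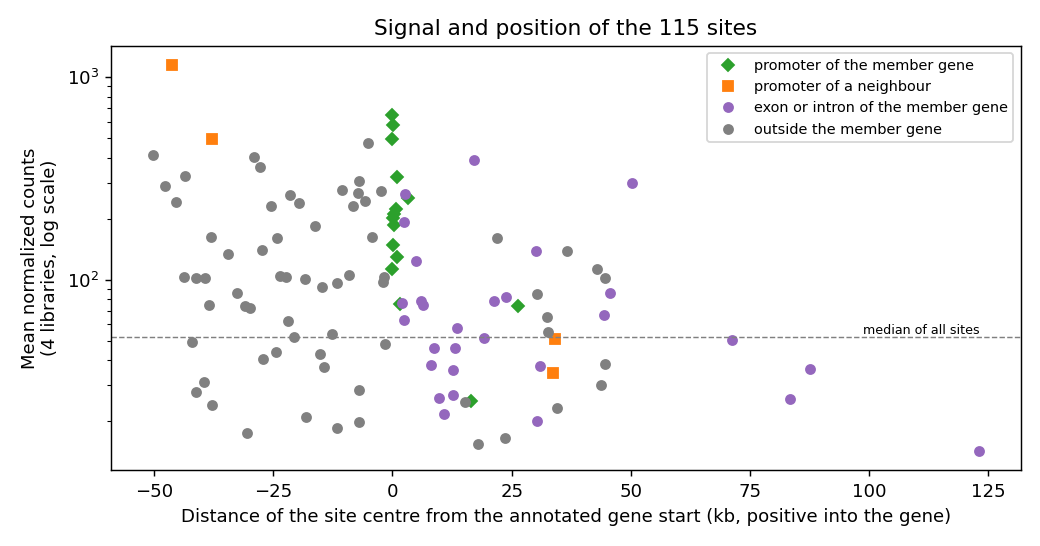
Mean normalized counts of the 4 libraries (log axis) against the distance of each of the 115 sites from the annotated start of its gene, in kb, with positive distances into the gene; colours give the annotation and the dashed line the median of all sites. Promoter sites reach the highest values among sites of the genes themselves, and many sites 20 to 50 kb upstream lie above the median.

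At its outer edge the 50 kb rule took in the Col5a1 site whose near edge lay 49.8 kb from the gene start, with values of 279 and 431 in WT and 448 and 499 in KO. The nearest site left out, beside Lox at 50.9 kb, had values of 67 and 102 in WT and 74 and 107 in KO.

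Summed over their sites, 3 genes were higher in both KO lines than in both WT lines (Col5a1, Col5a2 and Sparc), and none was lower in both. Among the 18801 protein-coding genes with a site, 24.8% were higher and 10.6% lower in both KO lines. By limma on the sums, 0 of the 10 genes were called (0.303% of all genes), and 0 had an unadjusted p under 0.05 (4.14% of all genes) or an adjusted p under 0.05 (0% of all genes). WT replicate 1 was the lowest library for 9 of the 10 genes and KO replicate 2 the highest for 7. The line names of these 2 libraries share the number 643, whose meaning the labels do not give. The 95% confidence intervals of the 10 differences lay between -0.76 and 0.91 on the log2 scale, so none reached a 2-fold change in either direction.

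**Figure D2:**
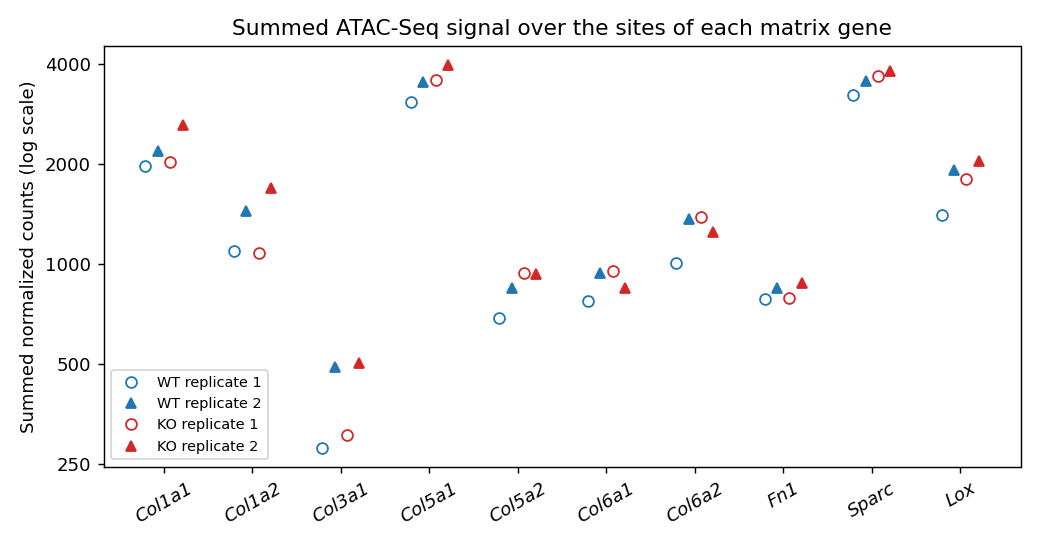
Normalized counts summed over the sites of each gene (log axis), 1 point per library, blue for WT and red for KO, with open circles for replicate 1 and filled triangles for replicate 2. At Col1a2 and Col3a1 the lines of each genotype lie far apart and the genotypes overlap, while at Col5a1, Col5a2 and Sparc both KO points lie above both WT points.

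Col1a1 and Col1a2 encode the chains of type I collagen. The 14 sites of Col1a1 (chr11:94936224-94953042, plus strand, mm10) summed to 1977 and 2188 in WT and to 2028 and 2619 in KO. Only KO replicate 2 stood above both WT lines. The difference was 0.15 ± 0.14 (SE, n = 2 and 2; limma, adjusted p = 0.903). The site at the gene start had 171 and 205 in WT and 167 and 262 in KO, so that the lowest and the highest library were both KO. The strongest other Col1a1 site, 0.845 kb into the gene, had 319 and 290 in WT and 327 and 343 in KO, with a difference of 0.14 ± 0.15. The site 2.46 kb upstream, the largest difference among Col1a1 sites of at least median signal, had 225 and 256 in WT and 267 and 341 in KO, both KO lines being higher (0.33 ± 0.19, limma, adjusted p = 1).

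The 12 sites of Col1a2 (chr6:4504814-4541544, plus strand) summed to 1094 and 1447 in WT and to 1081 and 1693 in KO. Replicate 2 of each genotype was the high line, and the genotypes overlapped. The difference was 0.10 ± 0.24 (limma, adjusted p = 0.955), and WT replicate 2 exceeded WT replicate 1 by a median of 0.50 over the sites, KO replicate 2 exceeding KO replicate 1 by 0.73. The promoter site showed the same split, with 172 and 233 in WT and 183 and 304 in KO. The strongest Col1a2 site, 47.7 kb upstream, had 218 and 354 in WT and 257 and 325 in KO, both KO values lying between the WT values. The site 20.7 kb upstream had 34 and 57 in WT and 41 and 77 in KO, a difference of 0.35 ± 0.46.

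**Figure D3:**
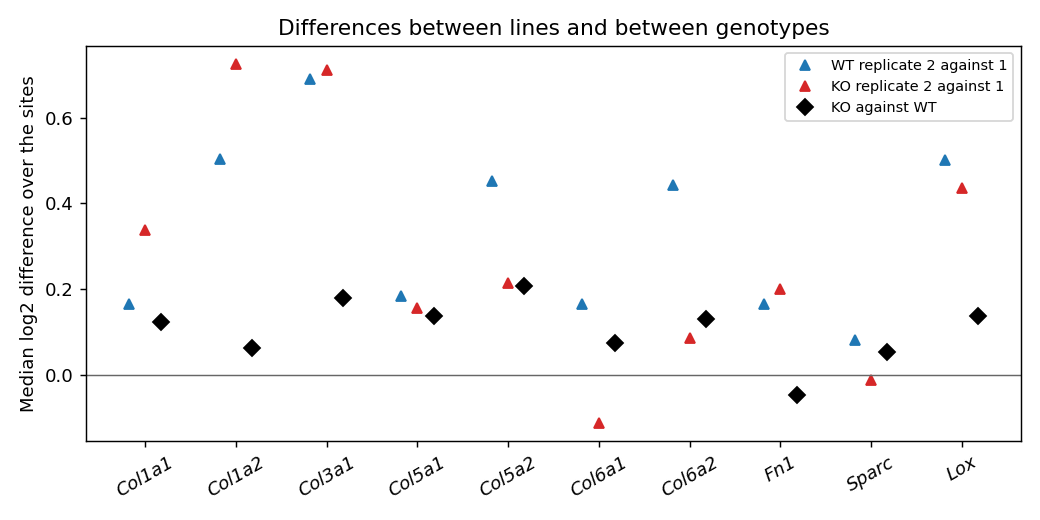
Median log2 difference over the sites of each gene, for replicate 2 against replicate 1 within WT (blue triangles) and within KO (red triangles), and for KO against WT (black diamonds). At every gene except Col6a1, Col6a2 and Sparc both within-genotype medians exceed the difference between genotypes. KO replicate 2 lies below KO replicate 1 at Col6a1 and Sparc.

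The promoters of Col1a2, Col3a1 and Col5a1 are shown because they differ in base composition and in line-to-line difference while none differed between genotypes beyond its error. Each is the 250 bases before the RefSeq start (GRCm38.p6, the mm10 build), read 5′ to 3′ on the strand of the gene, and capitals mark, on either strand, the letters TATAAA of a TATA box, the CCAAT box, the letters GGGCGG of a GC box or the letters CATTCC of a TEAD match. They lie at chr6:4505368-4505617 (Col1a2), chr1:45311288-45311537 (Col3a1) and chr2:27886175-27886424 (Col5a1), all on the plus strand.
Col1a2: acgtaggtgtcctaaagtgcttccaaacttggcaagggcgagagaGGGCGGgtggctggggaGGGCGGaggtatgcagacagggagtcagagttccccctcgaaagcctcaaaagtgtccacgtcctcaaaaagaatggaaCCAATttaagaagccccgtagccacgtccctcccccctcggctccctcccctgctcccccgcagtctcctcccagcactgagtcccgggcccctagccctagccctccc
Col3a1: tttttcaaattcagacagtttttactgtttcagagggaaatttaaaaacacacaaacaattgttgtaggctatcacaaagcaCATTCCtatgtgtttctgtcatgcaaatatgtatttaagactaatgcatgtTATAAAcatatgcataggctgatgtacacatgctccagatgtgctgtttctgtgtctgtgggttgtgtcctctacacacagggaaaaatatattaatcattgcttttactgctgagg
Col5a1: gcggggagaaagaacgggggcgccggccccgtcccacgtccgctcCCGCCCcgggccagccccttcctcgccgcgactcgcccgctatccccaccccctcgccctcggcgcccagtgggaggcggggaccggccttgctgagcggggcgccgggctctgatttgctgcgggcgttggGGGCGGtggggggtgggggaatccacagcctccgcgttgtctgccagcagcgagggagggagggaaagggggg

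The Col3a1 promoter was AT-rich, with 35.2% G and C, and held 1 TEAD match and 1 match to the TATA box letters. The latter stood near the middle of the window, not close to the start. The Col5a1 promoter had 76.4% G and C and 2 GC boxes, and the Col1a2 promoter had 62% with 2 GC boxes and 1 CCAAT. Over 32544 RefSeq promoters, windows of the same length held a TATA box in 12.3%, a CCAAT in 33.8%, a GC box in 33.0% and a TEAD match in 12.6%. In all, 6 of the 10 genes matched the RefSeq promoter table, and Col1a1, Col5a2, Fn1 and Lox did not. Letters of this kind are a description and say nothing on binding.

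Col3a1 encodes the single chain of collagen III, and its sum was the lowest of the 10 genes. Its 7 sites (chr1:45311538-45349706, plus strand) summed to 281 and 492 in WT and to 306 and 503 in KO. Replicate 2 of either genotype was the high line, and each KO value lay next to the WT value of the same height. The difference was 0.08 ± 0.34 (limma, adjusted p = 0.977), while WT replicate 2 exceeded WT replicate 1 by a median of 0.69 over the sites and KO replicate 2 exceeded KO replicate 1 by 0.71. The promoter site, which covers the sequence shown above, had 83 and 126 in WT and 86 and 156 in KO. The intronic site 2.50 kb into Col3a1 had 40 and 77 in WT and 49 and 86 in KO. The strongest other site, 44.6 kb from the start and past the gene end, had 79 and 128 in WT and 80 and 122 in KO.

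Col5a1 and Col5a2 encode chains of collagen V, which starts and limits fibril growth. Col5a1 (chr2:27886425-28039514, plus strand) had 21 sites, more than any other of the genes, which summed to 3062 and 3517 in WT and to 3565 and 3966 in KO. Both KO lines were above both WT lines, KO replicate 1 by a narrow margin. The difference was 0.20 ± 0.11 (limma, adjusted p = 0.901), with a 95% interval of -0.08 to 0.47. The promoter was among the strongest sites and did not share this order, with 495 and 498 in WT and 434 and 550 in KO (-0.02 ± 0.14). The 7 Col5a1 sites that were higher in both KO lines all lay away from it. The site 50.3 kb upstream had 279 and 431 in WT and 448 and 499 in KO (0.45 ± 0.22, limma, adjusted p = 1), and the site 24.3 kb upstream had 109 and 158 in WT and 179 and 195 in KO (0.51 ± 0.26, limma, adjusted p = 1). In both, WT replicate 1 was lowest by a wider margin than any other gap. Without WT replicate 1 the differences were 0.13 and 0.24, and without WT replicate 2 they were 0.76 and 0.77.

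Col5a2 (chr1:45374321-45503282, minus strand) had 13 sites, which summed to 688 and 849 in WT and to 940 and 937 in KO. The KO lines were nearly equal and both above WT. This order rested on the site 24.4 kb upstream, with 16 and 16 in WT and 126 and 18 in KO. Without that site, KO replicate 1 lay below WT replicate 2 and the genotypes overlapped. With all libraries the difference of 0.30 ± 0.14 was the largest of the 10 genes (95% interval -0.04 to 0.63, limma, adjusted p = 0.901). Without WT replicate 1 it was 0.14, and it was below the 0.48 of Col3a1 and the 0.45 of Lox without WT replicate 2 and below the 0.43 of Col3a1 and of Col1a2 without KO replicate 1. The Col5a2 promoter site had 174 and 142 in WT and 215 and 212 in KO, with no overlap (0.44 ± 0.21, limma, adjusted p = 1). The strongest other site, 38.0 kb upstream, had 127 and 174 in WT and 158 and 192 in KO, which overlapped.

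Of the 115 sites, 3 differed by 2-fold or more, beside 6.42% of all sites. They were singled out after their values had been seen, and all had a mean below the median of all sites. The Col5a2 site 24.4 kb upstream had 16 and 16 in WT and 126 and 18 in KO, so that 1 line alone stood out (1.53 ± 0.87, limma, adjusted p = 1). The 126 of KO replicate 1 stood for about 117 reads, with a 95% counting interval (exact Poisson) of 104 to 151, against 9.35 to 31.6 in KO replicate 2. Without KO replicate 1 the difference was 0.16, and without KO replicate 2 it was 2.90. The intronic Col5a2 site 30.4 kb into the gene had 30 and 24 in WT and 15 and 11 in KO (-1.01 ± 0.52, limma, adjusted p = 1). The counting intervals of its libraries overlapped, at 16.8 to 34.0 in WT replicate 2 and 8.23 to 25.3 in KO replicate 1. The third, 30.6 kb upstream of Sparc and inside Atox1, had 23 and 26 in WT and 6 and 15 in KO (-1.27 ± 0.66, limma, adjusted p = 1). The counting interval of KO replicate 1, 2.37 to 14.1, lay below those of WT replicate 1 (15.1 to 33.4) and WT replicate 2 (18.0 to 35.6), and that of KO replicate 2, 7.23 to 27.7, overlapped them.

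These sequences are shown because they are the only sites with a 2-fold difference, read on the plus strand of mm10, the first and last whole and the middle one as its central 300 bases, at chr1:45472798-45473002, chr1:45527484-45527783 and chr11:55453648-55453884. Capitals mark, on either strand, the letters TGANTCA of an AP-1 match, the CCAAT box or the letters TGTGGT of a RUNX match.
Col5a2 intronic site: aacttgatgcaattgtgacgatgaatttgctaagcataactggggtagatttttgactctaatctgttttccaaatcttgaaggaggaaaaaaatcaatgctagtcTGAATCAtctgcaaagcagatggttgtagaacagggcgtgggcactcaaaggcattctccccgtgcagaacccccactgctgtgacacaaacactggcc
Col5a2 upstream site: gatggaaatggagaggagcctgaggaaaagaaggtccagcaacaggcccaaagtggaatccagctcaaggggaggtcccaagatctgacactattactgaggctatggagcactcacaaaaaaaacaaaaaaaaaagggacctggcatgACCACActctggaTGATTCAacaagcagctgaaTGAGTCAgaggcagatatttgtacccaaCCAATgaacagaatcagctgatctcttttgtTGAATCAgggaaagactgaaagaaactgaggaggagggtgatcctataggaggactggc
Sparc upstream site in Atox1: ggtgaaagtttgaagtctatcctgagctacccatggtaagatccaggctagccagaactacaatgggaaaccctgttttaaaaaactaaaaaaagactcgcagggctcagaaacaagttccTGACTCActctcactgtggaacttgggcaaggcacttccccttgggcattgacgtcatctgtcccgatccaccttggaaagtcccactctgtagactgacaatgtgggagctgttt

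The site that was high in KO replicate 1 alone held 3 AP-1 matches in its central 300 bases, and the other two held 1 each. An AP-1 match stood in the central 300 bases of 34.8% of the 115 sites and of 37.7% of all sites. For the other motifs the shares were, in the same order, TEAD in 25.2% against 24.7%, RUNX in 21.7% against 26.6%, GC box in 12.2% against 17.3%, TATA box in 10.4% against 14.6% and CCAAT in 40.9% against 32.5%. The median share of G and C was 50.7% against 48.3%.

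Col6a1 and Col6a2 lie near each other on chromosome 10 and encode chains of collagen VI. The 6 sites of Col6a1 (chr10:76708792-76726168, minus strand) summed to 774 and 940 in WT and to 954 and 848 in KO, and the 8 sites of Col6a2 (chr10:76595762-76623630, minus strand) to 1005 and 1370 in WT and to 1387 and 1249 in KO. Here KO replicate 1 was the high line, and WT replicate 1 was low for both genes. The differences were 0.08 ± 0.14 for Col6a1 and 0.17 ± 0.16 for Col6a2. The promoter sites of both genes were nearly level across the libraries, with 148 and 144 in WT and 153 and 146 in KO for Col6a1 and with 201 and 229 in WT and 198 and 215 in KO for Col6a2. The site 10.6 kb upstream of Col6a2 differed between the KO lines, with 220 and 296 in WT and 401 and 195 in KO. The site 43.7 kb upstream of Col6a1, inside Pcbp3, varied between lines of either genotype, with 54 and 126 in WT and 84 and 150 in KO. The strongest Col6a1 site, 7.04 kb upstream, had 297 and 336 in WT and 296 and 292 in KO, the only site of at least median signal that was below WT in both KO lines (-0.10 ± 0.15, limma, adjusted p = 1).

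Fn1, the fibronectin gene (chr1:71585520-71653200, minus strand), had the fewest sites, 5, and the smallest difference. The sums were 783 and 847 in WT and 792 and 879 in KO, which interleaved (0.03 ± 0.12, 95% interval -0.26 to 0.33). Most of this signal was at the promoter, with 602 and 675 in WT and 610 and 701 in KO. The site 38.6 kb upstream had 85 and 64 in WT and 53 and 96 in KO, the lowest and the highest being KO.

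Sparc (chr11:55394500-55423183, minus strand) had 16 sites, which summed to 3221 and 3560 in WT and to 3680 and 3816 in KO, with no overlap, although the difference was -0.01 with quantile normalization (0.15 ± 0.10, 95% interval -0.10 to 0.39, limma, adjusted p = 0.901). No site lay within 1 kb of the annotated gene start. The site 3.28 kb in, at the promoter of another Sparc transcript and over the RefSeq start, had 236 and 249 in WT and 260 and 262 in KO (0.11 ± 0.17). Without the sites at the promoters of the neighbours Atox1 and G3bp1, the sums of the remaining 14 sites were 1841 and 1989 in WT and 1964 and 1944 in KO, which overlapped. The site at the promoter of G3bp1, 46.3 kb upstream, had 957 and 1103 in WT and 1191 and 1322 in KO, the only 1 of the 115 with an unadjusted p under 0.05 (0.29 ± 0.09, limma, adjusted p = 1). It did not pass that threshold with no intensity trend, with quantile normalization (-0.03) or without WT replicate 1 (0.19), KO replicate 1 (0.36) or KO replicate 2 (0.21). The site at the promoter of Atox1, a copper chaperone gene, had 423 and 468 in WT and 525 and 550 in KO (0.27 ± 0.12). The largest difference among the other Sparc sites of at least median signal was at 30.3 kb, past the gene end, with 85 and 106 in WT and 60 and 90 in KO (-0.36 ± 0.33).

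Counted over all 10 genes, 29 of the 115 sites were higher in both KO lines than in both WT lines, and 4 were lower in both, against 14.6% and 14.3% of all sites. Among the 78 sites of at least median signal the counts were 23 and 1, against 19.6% and 10.2% of all such sites. With quantile normalization 18 sites (15.7%) were higher and 6 (5.22%) lower, against 13.1% and 14.5% of all sites. Without WT replicate 1 the counts were 35 (30.4%) and 31 (27.0%), near the 29.5% and 29.3% of all sites under the same comparison. Without KO replicate 2 they were 42 (36.5%) and 29 (25.2%), against 34.0% and 32.4%. The excess of higher sites was wider without WT replicate 2, with 67 (58.3%) and 8 (6.96%) against 30% and 28.7%, and without KO replicate 1, with 64 (55.7%) and 15 (13.0%) against 34.7% and 33.8%. The 29 sites were spread over 7 of the genes with at least 2 sites each at Col1a1, Col5a1, Col5a2, Col6a2, Sparc and Lox and 1 at Col3a1, and there was none at Col1a2, Col6a1 or Fn1. The 95% interval lay within a 2-fold change in either direction at 55 sites (47.8%), against 32.1% of all sites. At the remaining sites a 2-fold difference was within the interval.

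**Figure D4:**
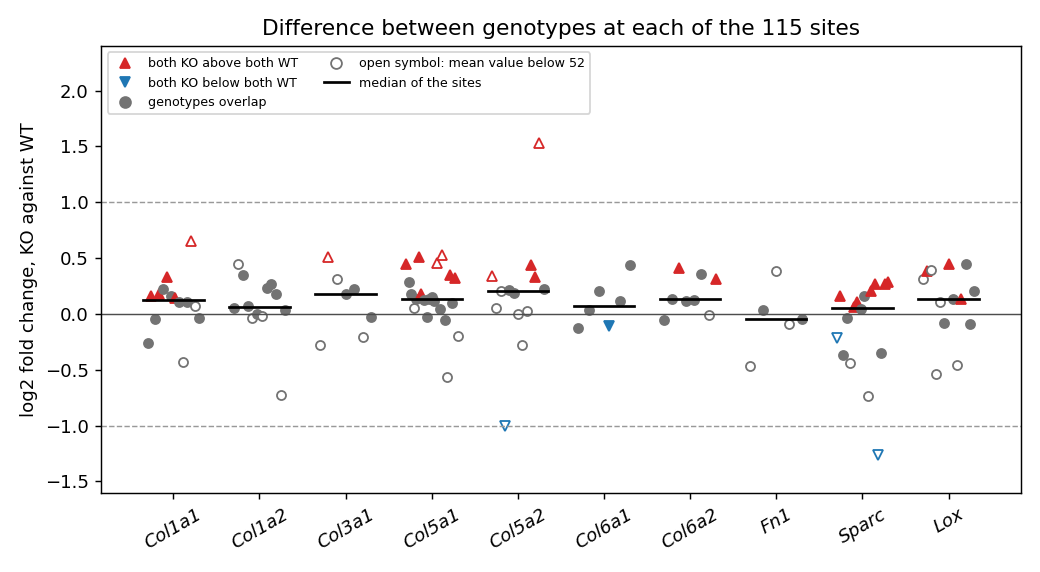
log2 fold change of KO against WT at each of the 115 sites, by gene and in genomic order within a gene; triangles mark sites where both KO lines lie on 1 side of both WT lines, open symbols sites of below-median signal, black bars the median of each gene and dashed lines a 2-fold change. Most points lie between -0.5 and 0.5, and the 3 sites past a dashed line are all open symbols.

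Lox, on chromosome 18 (52516067 to 52529867, minus strand), had 13 sites, which summed to 1401 and 1913 in WT and to 1808 and 2037 in KO. WT replicate 1 was low and the other libraries overlapped (0.23 ± 0.16, limma, adjusted p = 0.901). Without WT replicate 1 the difference was 0.0046, and without WT replicate 2 it was 0.45. Its promoter site had 429 and 552 in WT and 572 and 774 in KO, with no overlap, the largest positive difference among the own promoter sites of the 10 genes (0.45 ± 0.19, limma, adjusted p = 1). The strongest other Lox site, 29.1 kb upstream, had 355 and 413 in WT and 421 and 421 in KO (0.14 ± 0.14).

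Promoter sites of genes that act with these matrix genes were counted within 1 kb of the gene start. Of 33 other matrix genes 28 had such a site, as did 28 of 31 genes of collagen processing and 19 of 20 matrix receptors. By limma, 0 of their 32, 32 and 20 sites were called, where 0.264% of the 13278 promoter sites of protein-coding genes were. At an unadjusted p under 0.05, the count was 0 for other matrix genes, 2 for collagen processing and 0 for receptors, beside 3.92% of those 13278 sites. The median log2 fold changes were -0.06, 0.05 and 0.05, beside 0.14 for the 11 such sites at 9 of the 10 genes. Sparc had none within 1 kb of its annotated start.

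The sites with an unadjusted p under 0.05 were lower in KO and lay at Adamts2 and Adamts14, whose products cut the amino-terminal propeptide from fibrillar procollagens. They were singled out after their values had been seen, and a link to this shared function was not tested. Adamts2 had 212 and 274 in WT and 126 and 144 in KO (-0.83 ± 0.23, limma, adjusted p = 1), and Adamts14 had 89 and 86 in WT and 49 and 54 in KO (-0.75 ± 0.30, limma, adjusted p = 1). Neither overlapped between genotypes. The other Adamts14 promoter site, which was stronger, had 209 and 157 in WT and 241 and 200 in KO, which overlapped (0.28 ± 0.23). Adamts3, which encodes a protease of the same kind, had 52 and 17 in WT and 9 and 23 in KO at 1 promoter site (-0.995 ± 0.73). Its other promoter site had 56 and 36 in WT and 8 and 47 in KO (-1.14 ± 0.80). The genotypes overlapped at both, and the site means of 25.25 and 36.75 lay below the median of 52 over all sites. Within 3 kb in place of 1 kb, a further Adamts2 site with 59 and 94 in WT and 28 and 26 in KO was called (-1.43 ± 0.38, limma, adjusted p = 1). Of all sites 0.373% were called, and the share over promoter sites within 3 kb is not given here. P4hb, a subunit of prolyl 4-hydroxylase, had the largest positive difference among these genes, with 778 and 718 in WT and 818 and 1081 in KO (0.33 ± 0.14).

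Among other matrix genes of at least median signal, the extremes were Col18a1, which encodes a basement membrane collagen (-0.43), and Fbln5, which encodes an elastic fibre protein (0.43). Among matrix receptors they were Itga4 (-0.33) and Cd44, the hyaluronan receptor (0.22). Both KO lines were below both WT lines at 7, 5 and 2 promoter sites of other matrix, processing and receptor genes, and above them at 2, 7 and 6, against 15.1% and 20.5% of the 13278 promoter sites of protein-coding genes.

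From ATAC-Seq of primary fibroblasts, the study defined domains of lower accessibility by the average log2 fold change over 25 consecutive sites, with a cutoff of -0.58. The study also repeated the ATAC-Seq in immortalized fibroblasts and reported domain patterns much like those of primary cells. Here the same window length and cutoff were applied to immortalized lines, with other sites than in primary cells and another fit. The windows therefore do not place these genes inside or outside the domains of the study, and no overlap with its listed domains is given here. Windows centred on the site nearest to each gene start averaged between -0.11 at Sparc and 0.24 at Col5a2, a range above the cutoff. The share of all windows under the cutoff is not given here, so no comparison with other genes was made. The window means at Fn1, Lox and Col6a2 turned sign with other window sizes. Over all member sites of a gene, the lowest such window was -0.15, at Sparc, and the highest was 0.30, at Col5a2.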

How the data were processed

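Per the labels and the methods of the study, paired-end ATAC-Seq reads were aligned to mm10 with BWA 0.7.12, peaks were called with MACS2 2.1.0 and compared with DESeq2. The deposited table gives 1 value per library at 82325 merged sites. These values are a score: read counts that the authors divided by a factor per library and rounded, so no count test was used, although the planned design allowed for one. Read filtering and the Tn5 offset are not given in the sources used here. Columns of the authors' comparison (log2 fold changes, p-values and adjusted p-values) were not used. Total values per library were 8008069 to 8516263, and depths were estimated from the comb of low values, so they are approximate. Intervals on counts cover counting error only.

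Genes were taken from GENCODE for mm10. limma 3.58.1 in R 4.3.3 was fitted with an intensity trend to log2(value + 1) of all sites without a filter, or of summed sites of 18801 genes. The scale understates changes of low sites. p-values were adjusted over the whole table (Benjamini-Hochberg). The fit was tested on simulated data without differences between lines, so its behaviour under such differences was not tested. Motifs were searched on both strands in the central 300 bases, with overlaps allowed.

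Replicate numbers follow accession order and only name the lines. Of the line names in the labels, those of WT replicate 1 and KO replicate 2 share a number. For each gene the text names the site nearest its start within 1 kb, the strongest other site, the largest difference among sites of at least median signal and every called site. In other lists it names called promoter sites or the largest fall and rise. The Adamts14 and Adamts3 sites and the Adamts2 site within 3 kb are named beyond this rule, with their values known. The genes and lists were chosen with earlier results of these data known. Alternatives were another pseudocount (8), equal totals, median centring, quantile normalization, a filter at the median, no trend, each library left out, windows of 10 and 100 kb, any transcript start, promoters within 3 kb and windows of 15 and 51 sites.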

Additional observations from a re-analysis of the deposited data

How the results depend on the processing

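No member gene was called on its summed value, and no site reached an adjusted p under 0.05, under any alternative. Member sites called numbered 0 under every alternative that kept all 4 libraries. Without KO replicate 2, the difference at the Col5a2 site high in KO replicate 1 was 2.90. With 1 line left in a genotype, calls are not read here. The median log2 fold change of 0.13 was 0.06 with equal totals, 0.15 with median centring and 0.08 with quantile normalization, beside all-site medians of -0.06, 0.03 and 0.00, and it ranged from -0.03 without WT replicate 1 to 0.30 without WT replicate 2. Sites higher in both KO lines, 29 of 115 in the report, were 18 with quantile normalization (all sites 13.1%), 13 of 57 within 10 kb (22.8%, all sites 14.6%) and 35 to 67 with a library left out (all sites 29.5% to 34.7%). Sites lower in both, 4 in the report, were 1 of 78 sites of at least median signal, 2 of 57 within 10 kb, 7 of 181 within 100 kb (all sites 14.3%) and 8 to 31 with a library left out (all sites 28.7% to 33.8%). Fewer libraries to compare make such an order more frequent. The called promoter sites of the 3 other lists rose from 0 to 1 within 3 kb. The share called over all promoter sites within 3 kb is not given here, and over all sites it was 0.373%. Where a cause is not stated, the cause was not tested.

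Of other results, 350 kept their direction and side of the threshold and 49 turned direction. On sums these were Fn1 at -0.033 with equal totals and -0.025 with quantile normalization, Sparc at -0.0097 with quantile normalization and Col6a2 at -0.056 within 10 kb. At sites they were Fn1 promoter (-0.032 with equal totals, -0.16 with quantile normalization), Col6a1 promoter (-0.034 with equal totals, -0.031 with quantile normalization), the G3bp1 promoter (-0.025 with quantile normalization), Col1a2 at 47.7 kb (-0.011 with equal totals, -0.053 with quantile normalization), and, with median centring, Col3a1 at 44.6 kb (0.0018) and the Col5a1 promoter (0.0041). Window means turned at Fn1 (-0.033; 0.10 over 15 and 0.032 over 51 sites), Lox (-0.017; 0.099 over 15) and Col6a2 (0.10; -0.0071 over 51). With a library left out, sums ranged from -0.036 to 0.33 for Col1a1, -0.22 to 0.43 for Col1a2, -0.33 to 0.48 for Col3a1, -0.064 to 0.22 for Col6a1, -0.058 to 0.39 for Col6a2 and -0.040 to 0.11 for Fn1. Sites ranged from -0.16 to 0.48 at the Col1a1 promoter, -0.29 to 0.41, -0.10 to 0.79 and -0.13 to 0.60 at Col1a2 (47.7 kb, 20.7 kb, promoter), -0.25 to 0.60, -0.24 to 0.69 and -0.37 to 0.32 at Col3a1 (promoter, intron, 44.6 kb), -0.19 to 0.15 at the Col5a1 promoter, -0.16 to 1.04 at Col6a1 (43.7 kb), -0.15 to 0.038 and -0.39 to 0.65 at Col6a2 (promoter, 10.6 kb), and -0.063 to 0.14 and -0.47 to 0.38 at Fn1 (promoter, 38.6 kb). No paired analysis was possible because the genotypes share only 1 number in their line names, 643 of WT replicate 1 and KO replicate 2. With 2 lines a genotype and fewer reads in KO, a 2-fold difference could not be told from none at most low sites.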
